A study of Mus musculus with 6 samples.

Results

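Ccr7-high cells of B16-OVA tumors are the cell barcodes of the 2 tumor libraries with at least 3 raw unique molecular identifiers (UMIs) of Ccr7. A barcode also needed 500 or more genes, 1000 or more UMIs and no more than 20% of its UMIs from mitochondrial genes. The melanoma genes Pmel, Mlana, Tyrp1 and Dct had to sum to fewer than 50 UMIs, and the macrophage genes Lyz2, C1qa, C1qb and Csf1r to fewer than 10. By this rule 154 of 770 tumor cells under both limits are Ccr7-high, out of 1017 filtered tumor cells and 11125 filtered cells of the 6 libraries. They are 113 of 296 cells (38.2%, 32.6 to 44.0%) in the library labelled Pdcd1fl/fl, called the fl/fl-labelled library below, and 41 of 474 (8.65%, 6.28 to 11.6%) in that labelled Pdcd1 cKO, the cKO-labelled library. The other 183 and 433 cells under both limits, with fewer than 3 Ccr7 UMIs, are called the remaining cells.

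The study follows CD8+ T cells from thymus and spleen to B16-OVA melanoma in adult C57BL/6 mice with and without PD-1, the receptor encoded by Pdcd1. Control mice are Pdcd1fl/fl without Cre, and conditional knockout (cKO) mice are Pdcd1fl/fl with E8I CD8-Cre, a Cre that acts in CD8+ cells after positive selection. Each tumor library pooled 3 mice on day 12 after subcutaneous injection, with digestion, dead cell removal and CD8 (TIL) microbeads before PIPseq. Thymus and spleen libraries of both genotypes, titled baseline and each from 1 mouse, complete the set, with 1 library per genotype and tissue. The tumor libraries hold 9401747 and 7924590 UMIs over 457 and 561 barcodes, and no barcode sequence occurs in both. Ccr7-high cells have a median of 12178 and 11445 UMIs, remaining cells 10694 and 8911. Values are given in this order throughout, the fl/fl-labelled library before the cKO-labelled library.

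CCR7 is the receptor for CCL19 and CCL21, and it guides naive and central memory T cells as well as mature dendritic cells to lymph nodes. XCL1 is a chemokine of activated CD8+ T cells and NK cells and binds XCR1 on type 1 conventional dendritic cells (cDC1). TCF7 encodes TCF-1, a transcription factor of naive, memory and stem-like T cells.

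Pdcd1 (ENSMUSG00000026285, chromosome 1, 93966027 to 93980312, minus strand, GRCm39) was read first as a check of the labels. In filtered cells the library labelled cKO holds 131 Pdcd1 UMIs in the thymus against 12 in the one labelled Pdcd1fl/fl, a log2 ratio of 1.87 (1.01 to 2.85). In the spleen the counts are 104 against 1 (4.69, 2.18 to 10.01). Pdcd1 RNA thus goes against the labels in both tissues, and filtered tumor cells show 76.4 and 102 counts per 1000000 UMIs (CPM; log2 ratio 0.42, 0.27 to 0.56). Under both limits the tumor values are 179.9 and 151 CPM (-0.26, -0.40 to -0.11), and in Ccr7-high cells 151 and 120.4 CPM (-0.33, -0.74 to 0.06). Counts per gene do not show which Pdcd1 exons were read, so the libraries are named by their labels and each result is given per library. All intervals are 95% counting intervals and cover sampling of UMIs or cells only. With no second library per group, no difference between labels or tissues has a replicate check. Ccr7-high and remaining cells are compared within each of the 2 tumor libraries, which differ in label. No p value is given.

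Ccr7 (ENSMUSG00000037944, chromosome 11, 99035022 to 99045911, minus strand) chose the cells, so its values only describe them. A Ccr7-high cell carries a median of 8 and 6 Ccr7 UMIs, with maxima of 57 and 25. Summed Ccr7 is 865 and 515 CPM in Ccr7-high cells, 38.8 and 10.1 in the remaining cells, and 9.52 and 4.37 in the 139 and 58 barcodes that the melanoma limit removed. Cells sit close to the threshold on both sides. Exactly 2 Ccr7 UMIs are held by 26 and 8 cells, and exactly 3 by 15 and 9. Xcl1 is detected in 16 of 26 and 4 of 8 cells just outside, and in 9 of 15 and 8 of 9 just inside. Gzmb is detected in 13 and 6 of the former and in 6 and 4 of the latter. The share of Ccr7-high cells is 47.0% and 10.3% with a minimum of 2 Ccr7 UMIs, and 31.4% and 5.27% with a minimum of 5. Thinned to 1000 UMIs per cell, Ccr7 is detected in 23.6% and 4.85% of cells under both limits.

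By T cell genes, nearly all Ccr7-high cells are T cells. The class rule asks for at least 3 of the 8 T cell genes Cd3d, Cd3e, Cd3g, Cd247, Trac, Trbc2, Lck and Thy1, or at least 3 of the 8 dendritic cell genes Fscn1, Ccl22, Cacnb3, Il4i1, Zbtb46, Flt3, H2-Aa and H2-Eb1. 106 of 113 cells (93.8%, 87.7 to 97.5%) and 36 of 41 (87.8%, 73.8 to 95.9%) meet the T rule alone. Both rules are met by 5 cells (4.42%) and 5 cells (12.2%), the dendritic rule alone by 2 (1.77%) and 0, and no cell meets neither. At least 5 of the T cell genes are present in 110 and 41 cells. No dendritic class gene is seen in 60 and 17 cells, and 17 and 8 cells lie at 2 or 3 of these genes, next to the class minimum. Among the remaining cells 177 and 419 are T class, 2 and 12 meet both rules, 4 and 2 meet neither, and none is dendritic alone. The melanoma barcodes are deeper, with medians of 32272 and 35962.5 UMIs, and 24 and 3 of them meet the dendritic rule alone and 51 and 36 both rules. The few cells outside the T class depend on the rule: with 2 UMIs asked per gene, both rules are met by 2 and 1 cells, and with at least 4 genes the dendritic rule alone by 1 and 0.

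**Figure D1:**
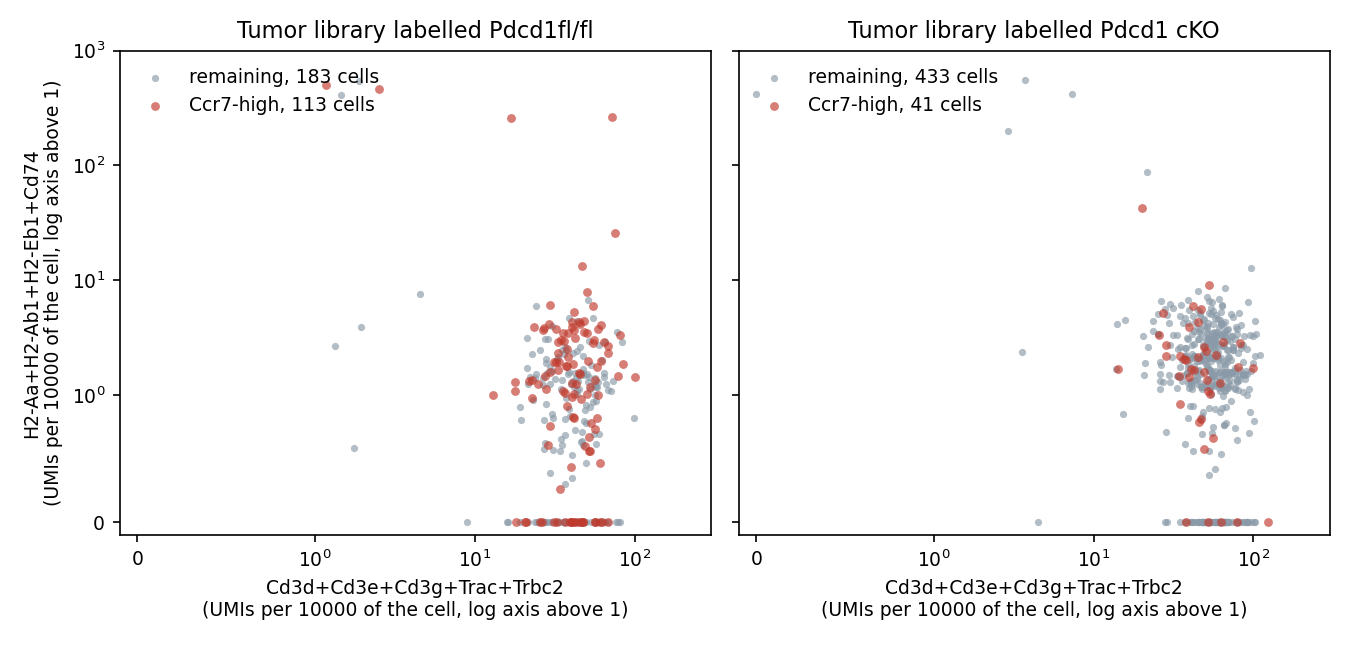
T cell receptor complex genes (horizontal) and MHC class II genes (vertical) in each tumor cell under both limits, in UMIs per 10000 of the cell, for Ccr7-high and remaining cells of each tumor library.

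T cell genes are read at levels near those of other tumor T cells. The T class genes take a median of 46.9 and 53.0 UMIs per 10000 of a Ccr7-high cell, 49.8 and 65.3 of a remaining cell, and 1.21 and 2.47 of a melanoma barcode. Cd3d reaches 1214 and 1430.3 CPM against 1200.0 and 1463 in the remaining cells (log2 ratios 0.02 (-0.07 to 0.10) and -0.03 (-0.14 to 0.07)). The median log2 ratio, Ccr7-high over remaining, is -0.27 and -0.35 for the T class list, -0.12 and -0.04 for other T cell genes and -0.01 and -0.25 for the CD8 and CD4 genes. None of these lists has a gene at 2-fold in both libraries. Most of the cells carry CD8 RNA: Cd8b1 is detected in 104 and 39 cells and Cd4 in 3 and 1. A UMI of Cd8a or Cd8b1 is present in 106 of 113 and 39 of 41 cells, and Cd4 without either in 2 and 0. Cd8b1 levels are 422 and 549 CPM against 424 and 579.6 and Cd8a levels 306 and 244 CPM against 308 and 330.5. Their log2 ratios in the fl/fl-labelled library, -0.01 for both, become 0.17 under median of ratios scaling, and as means over cells those of Cd3d are -0.00138 and 0.0243. Reads of Trbc1 and Trbc2, and of H2-K1 and H2-D1, can be hard to assign because these paralogs are similar.

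A few Ccr7-high cells carry dendritic cell genes. In the fl/fl-labelled library the 2 cells of the dendritic class hold 19 and 15 Ccr7 UMIs with no UMI of Cd3d, Cd3e, Cd3g, Cd8a or Cd8b1. They carry 93 and 74 UMIs of H2-Aa, 200 and 162 of Cd74, 126 and 83 of Cst3, and 3 and 2 of Ccl22, a chemokine of mature dendritic cells. The first also holds 6 Il4i1, 7 Cxcl16 and 6 Traf1 UMIs, the other 6 Relb and 1 Clec9a. Neither has a UMI of Fscn1, Zbtb46, Flt3, Itgax, Il12b or Nudt17. The other cell meets the class rule by H2-Aa, H2-Eb1 and Ccl22 alone. Another 2 cells of this library meet both rules with 50 and 58 H2-Aa, 178 and 136 Cd74 and 11 and 58 Trbc2 UMIs. In the cKO-labelled library a cell that meets both rules has 15 Fscn1, 5 Il12b, 307 Cst3, 22 H2-Aa and 11 Cd3d UMIs, and the other 4 have 3 dendritic class genes each. Whether a barcode with genes of both kinds is a cell doublet was not tested beyond a Scrublet call, which named none of the Ccr7-high cells but also only 1 of 456 and 3 of 561 filtered tumor cells. Xcr1, Ccl17 and Ccl19 have no UMI in any Ccr7-high cell.

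These 2 dendritic class cells were set against the 106 T class Ccr7-high cells of the same library. Their highest ratios include H2-Aa, H2-Eb1, H2-Ab1 and Cd74. H2-Aa has 167 UMIs in the 2 cells and 12 in all T class cells, a log2 ratio of 10.24 (9.40 to 11.22). By rank, next come Ifitm1 (10.27, from 1 cell), H2-Eb1 (9.78), H2-Ab1 (8.85), Cd74 (7.31), Ifitm3 (6.50), Ifi30 (6.26), Arhgef3 (5.68), Cst3 (5.31), Lgals3 (4.89), Isg15 (4.15) and Ass1 (4.11). The 2 dendritic class cells have no UMI of Cd3d, Cd3g, Trbc1, Thy1, Cd8a, Cd8b1, Xcl1, Dapl1, Ly6c2, Ncl or Npm3. For Cd3d this puts the log2 ratio at or below -2.75, and Nkg7 has 1 UMI (-4.57 (-9.87 to -2.09)). H2-Aa, H2-Eb1, Cd3d, Cd3g and Thy1 belong to the class rule that split these cells, so their values only describe the split.

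MHC class II genes lie mostly in few cells of the fl/fl-labelled library. H2-Aa is 204 CPM against 59.4 in the fl/fl-labelled library and 69.8 against 74.7 in the cKO-labelled library (log2 ratios 1.78 (1.49 to 2.07) and -0.10 (-0.61 to 0.38)). In the fl/fl-labelled library, 4 of the 113 Ccr7-high cells hold 89.6% of its H2-Aa UMIs, 90.9% of H2-Ab1, 92.5% of H2-Eb1 and 77.0% of Cd74, and 96.1% of the H2-Aa UMIs lie outside the T class. H2-Aa and H2-Eb1 belong to the class rule, so their values inside and outside the T class partly restate that rule. The same holds for the dendritic class medians among T class cells below. The 4 richest remaining cells hold similar shares of their side, 85.4%, 86%, 87.0% and 74.0%. The log2 ratios are 1.68 and -0.92 for H2-Eb1, 0.77 and -0.54 for H2-Ab1 and 1.32 and -1.19 for Cd74, with opposite signs in the 2 libraries as for H2-Aa. Without the richest cell on each side the first library gives 2.75 for H2-Aa, 2.41 for H2-Eb1, 1.44 for H2-Ab1 and 1.84 for Cd74, and H2-Aa becomes -0.88 in the other, where 1 cell holds 55% of it. The MHC class II list as a whole has median log2 ratios of 1.04 and -0.46, and the dendritic class list 1.06 and 0.18, with 4 of its genes measured in each library. With no UMI minimum for a list gene the dendritic class medians are 0.26 and 1.06. As means over cells they are 1.21 and -0.0553. Among T class cells alone the dendritic class medians are 0.03 and -0.39 and those of the MHC class II list 0.29 and -0.34. Opposite signs remain there for Cd74, at 1.06 (0.75 to 1.37) and -0.66 (-1.08 to -0.26). H2-Eb1 is 0.10 and -1.31. It has 15 UMIs in Ccr7-high T class cells of the fl/fl-labelled library, so no sign can be read from the 0.10. H2-Aa is -0.16 and -0.45 and H2-Ab1 -0.21 and -0.32. MHC class I genes, carried by all nucleated cells, have medians of -0.22 and -0.17.

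Genes of other lineages were read as well. The summed pan dendritic genes are at 539 and 1009.9 CPM against 312 and 375 in the remaining cells, with median log2 ratios of 0.26 and 0.88. Cst3 carries most of that list, at 520.0 and 991 CPM against 293 and 361, and 1 cell of the cKO-labelled library holds 54.0% of it there; without the richest cells its log2 ratio there goes from 1.46 to 0.57. In the fl/fl-labelled library it is 0.83, and 1.00 under scaling. The cells outside the T class hold 41.6% and 66.4% of the Cst3 UMIs of Ccr7-high cells, and in T class cells alone Cst3 is 0.26 and 0.65 and the pan dendritic sum 0.25 and 0.64, against 0.79 and 1.43 in all cells. The cDC1 list sums to 85.7 and 105 CPM against 132 and 199 (medians -0.74 and -1.54), the cDC2 list to 33.2 and 8.72 CPM against 22.7 and 13.5 (median 0.25 in the fl/fl-labelled library, too few UMIs in the other). Clec10a supplies 30 cDC2 UMIs in the fl/fl-labelled library, 70% of them from 1 cell. The pDC list rests on Pacsin1 alone (medians 0.74 and 1.09), the NK list on Klre1 (-1.03 and -0.75). Macrophage genes outside the rule have medians of 0.42 and 0.03, melanoma genes outside the rule -0.21 and -0.24, and B cell genes -0.29 and -1.44. Neutrophil genes have 3 and 1 UMIs in all Ccr7-high cells. Fibroblast and endothelial medians are -5.79 and 0.36, the first set by a remaining cell that holds 99.1% of the Col1a1 UMIs of its side. Ighm is 71.1 CPM against 30.1 in the fl/fl-labelled library and 89.0 against 165 in the cKO-labelled library (log2 ratios 1.24 (0.80 to 1.69) and -0.89 (-1.33 to -0.48)), and 1 remaining cell holds 77.1% of the latter. Without the richest cells the second ratio is 1.09.

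Against the remaining tumor cells, Ccr7-high cells differ in few genes by 2-fold in both libraries. Of 4364 genes with at least 50 UMIs in each library, 11 (0.252%) were at least 2-fold higher in both and 50 (1.15%) at least 2-fold lower. With a minimum of 20 UMIs these are 32 (0.431%) and 157 (2.12%) of 7417 genes, and with a minimum of 100 UMIs 7 and 18. The all-gene median log2 ratio is -0.18 and 0.01, and scaling by median of ratios gives 23 higher genes. Members are defined by Ccr7, so these are descriptions of the group, not tests.

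Xcl1 and Dapl1 lead the higher genes after Ccr7 itself. Xcl1 (ENSMUSG00000026573, chromosome 1, 164759213 to 164763096, minus strand) is 1037 CPM against 326 in the fl/fl-labelled library and 741 against 63.7 in the cKO-labelled library, log2 ratios of 1.67 (1.54 to 1.79) and 3.54 (3.32 to 3.76). Dapl1 (ENSMUSG00000026989, chromosome 2, 59314997 to 59335368, plus strand), a gene expressed in naive and memory T cells, is 299 CPM against 55.3 in the fl/fl-labelled library and 363 against 27.2 in the cKO-labelled library (2.43 (2.15 to 2.72) and 3.74 (3.41 to 4.07)). Cd200, whose product binds an inhibitory receptor on myeloid cells, is 107 and 164 CPM against 36.3 and 32.3 (1.56 (1.17 to 1.95) and 2.35 (1.96 to 2.73)), and Nrn1 172 and 138 CPM against 80.9 and 42.6 (1.09 (0.82 to 1.36) and 1.69 (1.30 to 2.08)). Nrn1 encodes neuritin, a secreted protein also made by regulatory and anergic T cells. The other genes past 2-fold are Ms4a4c (1.41 and 1.67), Jak2 (1.14 and 1.35), Bmyc (1.08 and 2.02) and Ramp3 (1.04 and 1.64), a partner of the receptor for adrenomedullin, with 2310001H17Rik (1.19 and 1.61) and C130026I21Rik (33.9 and 47.1 CPM against 12.0 and 15.8), chosen after their values were seen. Just short of it in one library or at the limit lie Ppic (1.13 and 0.94), Ppp1r15a (0.95 and 1.15) and Hopx (0.94 and 1.00). Under median of ratios scaling Ppp1r15a (1.12 and 1.17) and Hopx (1.12 and 1.02) pass it. As means over cells Jak2 (0.95 and 0.94) and Nrn1 (0.98 and 1.78) do not.

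**Figure D2:**
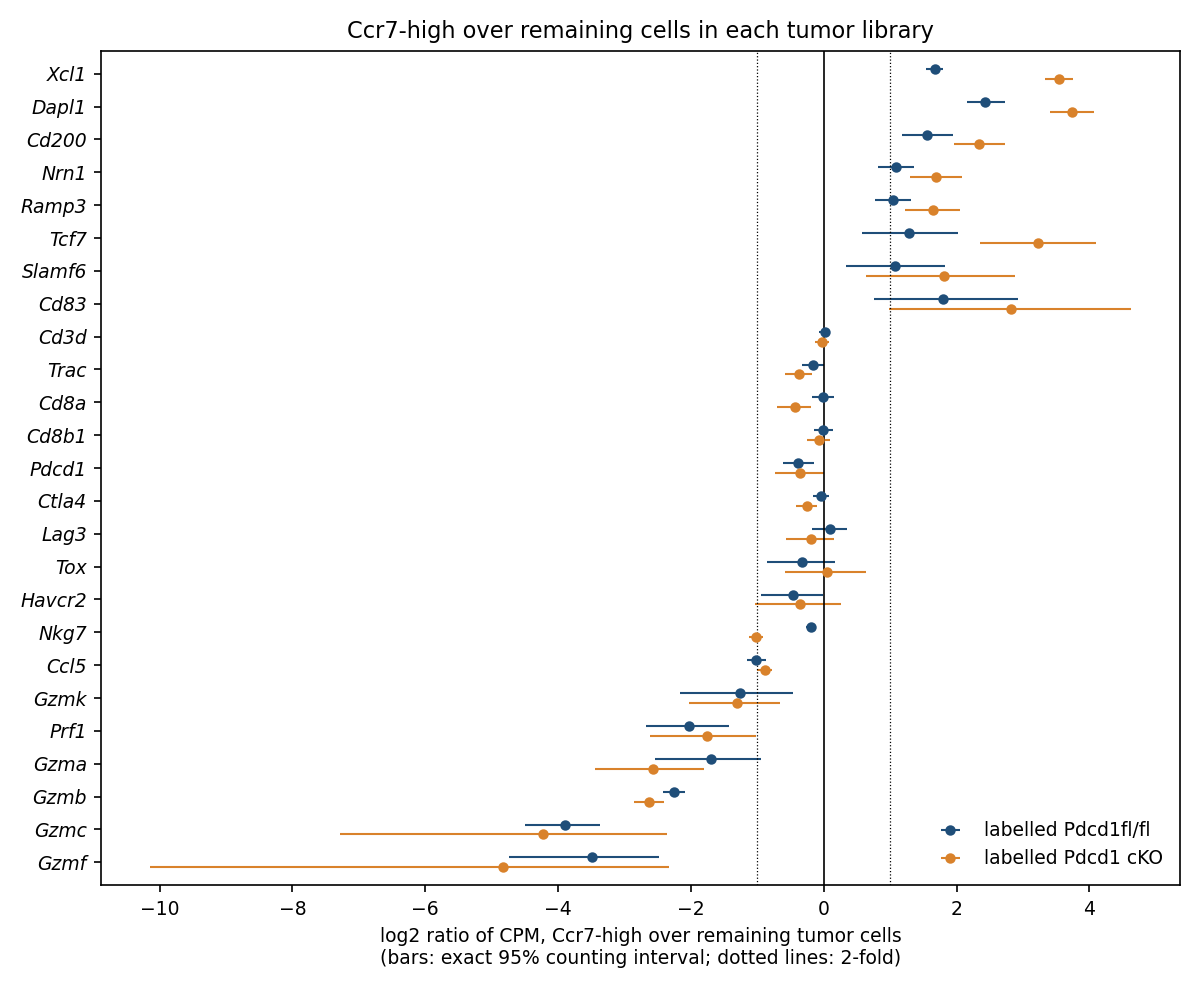
Log2 ratio of CPM, Ccr7-high over remaining tumor cells, for T cell, stem-like, exhaustion and cytotoxic genes in each tumor library, with exact 95% counting intervals. Dotted lines mark 2-fold.

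Granzymes lead the lower genes among those ranked, which leave out Gm and Rik genes. 1700016L21Rik, chosen after its values were seen, is lower still (-5.36 and -5.07, 1 against 66 and 1 against 277 UMIs). Gzmb (ENSMUSG00000015437, chromosome 14, 56496295 to 56499717, minus strand), a serine protease of cytotoxic granules, is 222 CPM against 1059.7 in the fl/fl-labelled library and 284 against 1755 in the cKO-labelled library, log2 ratios of -2.25 (-2.42 to -2.09) and -2.63 (-2.86 to -2.40). A single Ccr7-high cell holds 33.1% of the Gzmb UMIs in the cKO-labelled library, and without the richest cells that ratio is -3.10. Gzmc is 19.3 and 3.49 CPM against 288 and 65.4 (-3.90 (-4.49 to -3.37) and -4.23 (-7.28 to -2.36)), Gzmf -3.49 and -4.83 (-10.14 to -2.34) in log2 and Gzme -3.28 and at most -2.20 with 0 against 114 UMIs. Gzmc, Gzmd, Gzme, Gzmf, Gzmg and Gzmn are close copies on chromosome 14, so reads may be shared among them. Gzmf in the first library becomes -5.65 without the richest cells. Prf1, the pore protein perforin, is lower as well (17.3 and 26.2 CPM against 70.2 and 88.6; -2.02 (-2.68 to -1.42) and -1.76 (-2.61 to -1.02)), as are Gzma (-1.70 and -2.57) and Gzmk (-1.27 and -1.30). In the fl/fl-labelled library, 1 Ccr7-high cell holds 70.6% of Gzma, and without the richest cells its ratio is -2.98.

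Tbx21, which encodes the effector transcription factor T-bet, is lower with log2 ratios of -1.37 and -1.22, and Ikzf3, which encodes Aiolos, with -2.10 and -1.72. Metallothionein genes follow: Mt3 (-2.20 and -2.22), Mt2 (-2.03 and -1.37) and, chosen after its values were seen, Mt1 (-1.43 and -1.27). Further lower genes are Xrn1 (-5.29 (-10.62 to -2.76) and -2.07 (-4.37 to -0.48)), Pde4dip (-2.86 and -2.04 (-5.11 to -0.13)), C1qtnf6 (-1.54 and -2.05) and Bbs9 (-1.54 and -1.76 (-4.07 to -0.16)), and 1 remaining cell of the fl/fl-labelled library holds 81.0% of the Xrn1 UMIs of its side. Of the whole cytotoxic list, 5 of the 12 genes measured in both libraries are 2-fold lower in both. This stands beside 2.12% of all genes with the same minimum of 20 UMIs, and the list medians are -0.75 and -1.12. The paper names Nkg7, Prf1 and Gzmb for a cluster of cells from these tumor libraries, so this count describes the list and is no test of it. Nkg7 is closer, at -0.19 and -1.02, and Ccl5 is -1.02 and -0.89. A single Ccr7-high cell carries 55.0% of Ccl5 in the cKO-labelled library, where the ratio is -1.99 without the richest cells. Outside the rule for named genes, and chosen after their values were seen, S100a4 (-1.08 and -2.09), S100a6 (-1.20 and -2.18), Vim (-1.19 and -1.22), Cxcr6 (-1.03 and -2.60) and Cd7 (-1.37 and -2.48) were past 2-fold lower too. S100a4 in the fl/fl-labelled library is -0.91 under median of ratios scaling, short of 2-fold. The scaling shifts all genes of a library alike, so Cxcr6, at -1.03 there before scaling, is short of 2-fold as well. As means over cells Gzmk is -1.35 and -0.82 and Bbs9 -1.10 and -0.91, both short of 2-fold in a library. CXCR6 is the receptor by which effector T cells respond to CXCL16, and S100a4, S100a6 and Vim are genes of effector and memory T cells.

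Most of the same genes lead when only T class cells are compared. Of 4177 genes, 13 (0.311%) were at least 2-fold higher in Ccr7-high T class cells in both libraries and 57 (1.36%) lower, around all-gene medians of -0.17 and -0.02. Dapl1 is 2.45 and 3.95, Xcl1 1.68 and 3.67, Cd200 1.57 and 2.14, Ms4a4c 1.44 and 1.54, Jak2 1.13 and 1.27, Bmyc 1.10 and 2.30 and Nrn1 1.07 and 1.54. Irf2bp2 (1.45 and 1.16), Ppp1r15a (1.02 and 1.15) and the interferon-induced chemokine gene Cxcl10 (1.33 and 1.22) join them, with Tcf19 at 1.19 and 0.99. Tcf19 is counted because 0.5 UMIs were added to both sides of each ratio for the counts, and with none added the counts of higher and lower genes are 12 and 63. Ramp3 (0.90 and 1.38), C130026I21Rik (0.55 and 0.14) and Tbx21 (-1.31 and -0.93) are no longer past 2-fold in both libraries. Lower are Gzmb (-2.26 and -2.48), Gzmc (-4.21 and -3.65 (-6.70 to -1.78)), Gzmf (-3.46 and -4.60 (-9.91 to -2.10)), Prf1 (-1.98 and -1.93), Gzma (-1.76 and -2.52), Fcer1g (-2.96 and -2.93), Ccl9 (-1.77 and -4.29 (-9.60 to -1.79)), Mt2 (-2.09 and -1.72) and Grm7 (-1.71 and at most -1.43 with 0 against 78 UMIs). Ccl5 is past 2-fold in this comparison, at -1.24 and -1.93.

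Stem-like T cell genes are higher in part. Tcf7 (ENSMUSG00000000782, chromosome 11, 52143107 to 52174619, minus strand) is 29.2 CPM against 12.0 in the fl/fl-labelled library and 45.4 against 4.85 in the cKO-labelled library, log2 ratios of 1.29 (0.58 to 2.02) and 3.22 (2.36 to 4.10). Slamf6, a surface marker of stem-like exhausted T cells, is 1.08 and 1.81, or 0.92 and 1.89 as means over cells. Other genes of this list give mixed signs: Lef1 0.76 and -1.60 (-4.68 to 0.33), Id3 -0.95 and 2.81, Klf2 -0.24 and -0.86 (-3.97 to 1.12) and Tafa2 0.13 and -0.95 (-4.06 to 1.02). KLF2 drives transcription of S1pr1, a receptor for egress from lymphoid organs. Without Ccr7, which chose the cells, 3 of the 8 list genes measured in both libraries are 2-fold higher in both: Tcf7, Slamf6 and Xcl1. This stands beside 0.431% of all genes with the same minimum of 20 UMIs, and the list medians are 0.64 and 1.96. The paper names Xcl1, Tcf7 and Tafa2 for a cluster of cells from these tumor libraries. The count thus describes the list and is no test of it. Xcl1, counted in this list, is also a chemokine of activated CD8+ T cells. Exhaustion genes were also set beside the melanoma barcodes. Thinned to 1000 UMIs, Pdcd1 is detected in 9.73% and 9.76% of Ccr7-high cells, 10.4% and 14.5% of remaining cells and 1.44% and 0% of melanoma barcodes. Lag3 is found in 14.2% and 9.76% of Ccr7-high cells, 13.7% and 13.2% of remaining cells and 0.719% and 0% of melanoma barcodes. Ctla4 is detected in 46.9% and 43.9% of Ccr7-high cells, 41.5% and 50.1% of remaining cells and 20.1% and 15.5% of melanoma barcodes, and Havcr2, close to the melanoma barcodes, in 7.08% and 2.44% of Ccr7-high cells, 6.56% and 5.08% of remaining cells and 6.47% and 3.45% of melanoma barcodes. By sums Pdcd1 is 151 and 120.4 CPM against 198 and 154 in the remaining cells (-0.38 (-0.62 to -0.15) and -0.36 (-0.74 to 0.00)), Ctla4 -0.04 and -0.26 in log2, Lag3 0.09 and -0.19, Tox -0.33 and 0.05 and Havcr2 -0.47 and -0.35. Under scaling Ctla4 in the fl/fl-labelled library is 0.14, and without the richest cells Tox in the cKO-labelled library is -0.0337. Entpd1, which encodes CD39, is -0.90 and -1.89. No gene of the exhaustion list is past 2-fold in both libraries, its medians are -0.29 and -0.29, and those of the regulatory T cell list are -0.46 and 0.25.

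Lists named for dendritic cell maturation give mixed values. The mature or migratory dendritic list has medians of 0.17 and 0.22, with Cd200 the only one of its 7 genes with at least 20 UMIs in each library to be 2-fold higher in both, beside 0.431% of all genes with that minimum, and the costimulation list 1.27 and -0.11. Summed, the mature or migratory genes are at 0.22 (0.07 to 0.37) and 0.65 (0.46 to 0.84). In T class cells alone these sums are 0.12 (-0.03 to 0.28) and 0.33 (0.10 to 0.56). Below that minimum in the cKO-labelled library, Cd83 of the first list is 1.80 and 2.83, and of the costimulation list Tnfsf4, which encodes OX40 ligand, is 1.96 and 2.05 (-0.58 to 4.28) and Cd70 2.49 and 1.73 (-1.67 to 4.34), on 26 and 6, 29 and 3 and 21 and 2 UMIs. The 2 Cd70 UMIs of the cKO-labelled library lie in the same cell, and without that cell none is left, so no ratio can be read. Chemokine and cytokine genes have medians of 0.37 and 0.51, and Xcl1 is their only gene past 2-fold in both with that minimum, with Cxcl16 at 2.15 and 2.15 on 11 and 7 UMIs. Cells outside the T class hold 7, 2 and 1 of these Cxcl16 UMIs in the fl/fl-labelled library. In the cKO-labelled library 1 cell that meets both rules holds all 7. The NF-kappaB list, a pathway that drives Ccr7 in dendritic cells, has medians of 0.35 and 0.58, with 9 and 9 of 11 measured genes above 0 and none past 2-fold in both. The all-gene medians, with at least 50 UMIs, are -0.18 and 0.01. In T class cells alone the list medians are 0.29 and 0.34, with 9 and 8 genes above 0. Chemotaxis and cytoskeleton genes without Ccr7 have medians of -0.35 and -0.36, with none past 2-fold in both. Interferon-stimulated genes have medians of -0.08 and -0.55 and cycling genes -0.28 and -0.33. Mki67 or Top2a is detected in 29 of 113 and 11 of 41 Ccr7-high cells, and in 73 of 183 and 125 of 433 remaining cells.

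Ccr7-high cells vary among themselves. An Xcl1 UMI is present in 85 (75.2%) and 33 (80.5%) of them, Dapl1 in 56 and 27, both in 43 and 22, and neither in 15 and 3. Gzmb is present in 48 and 26 cells, at 10 or more UMIs in 10 and 5. Xcl1 and Gzmb share a cell in 41 and 21 cases. No UMI of any of the 6 granzyme genes counted is found in 57 and 8 Ccr7-high cells, and in 43 and 24 remaining cells. Tcf7 is detected in 29 and 11 cells, Pdcd1 in 69 and 26, and both together in 10 and 7.

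Depth differs between cells, so shares were also taken after thinning each to 1000 UMIs. Thinned Xcl1 is detected in 43.4% and 36.6% of Ccr7-high cells, 21.3% and 5.31% of remaining cells and 1.44% and 1.72% of melanoma barcodes. Dapl1 is found in 16.8% and 29.3% of Ccr7-high cells, 6.56% and 2.08% of remaining cells and 0% and 0% of melanoma barcodes. Gzmb runs the other way, in 14.2% and 9.76% of Ccr7-high cells, 40.4% and 64.0% of remaining cells and 0.719% and 8.62% of melanoma barcodes. The melanoma barcodes, the deepest of the 3 groups, are no pure background, since 29 and 16 meet the T rule alone and others both rules, and melanoma cells may express some of these genes. Tcf7 lies close to their share without thinning, in 25.7% and 26.8% of Ccr7-high cells against 16.5% and 24.1% of melanoma barcodes and 10.9% and 3.93% of remaining cells, and thinned in 0.885% and 7.32% of Ccr7-high cells, 0.546% and 0.231% of remaining cells and 0.719% and 3.45% of melanoma barcodes. S100a4, chosen after its values were seen, is detected thinned in 32.7% and 39.0% of Ccr7-high cells, 62.8% and 82.2% of remaining cells and 2.16% and 10.3% of melanoma barcodes.

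Xcl1 rises with Ccr7 across tumor cells under both limits, and Dapl1 does so less evenly. In bins of 0, 1, 2, 3 to 5, 6 to 11 and 12 or more Ccr7 UMIs, Xcl1 runs at 283, 379, 419, 544, 734 and 1532 CPM in the fl/fl-labelled library (115, 42, 26, 33, 38 and 42 cells). In the cKO-labelled library it runs at 49.4, 158, 339.6, 549, 868 and 904 CPM (393, 32, 8, 19, 16 and 6 cells, so 4 bins hold fewer than 20). Dapl1 runs at 31.0, 70.7, 130.4, 172, 378 and 306 CPM in the first and 14.2, 57.5, 466, 193, 464 and 532 in the second. There 1 of the 8 cells with 2 Ccr7 UMIs holds 36 of the 48 Dapl1 UMIs of its bin. Gzmb runs at 1246, 631, 985, 281, 283 and 145 CPM in the first and 1831, 1114, 728, 197, 226 and 633 in the second, lower in all Ccr7-high bins than in cells with 0 to 2 Ccr7 UMIs but not evenly falling. In the last bin of the second, 1 of the 6 cells holds 54 of the 63 Gzmb UMIs. The last bin is also deeper, with medians of 13758 and 16220.5 UMIs against 10565 and 8886 in cells without Ccr7. Among Ccr7-high cells alone, Spearman correlations with Ccr7, both per 10000 UMIs, are weak, at 0.20 over 113 cells and -0.01 over 41 for Xcl1 and at -0.02 and 0.11 for Dapl1.

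**Figure D3:**
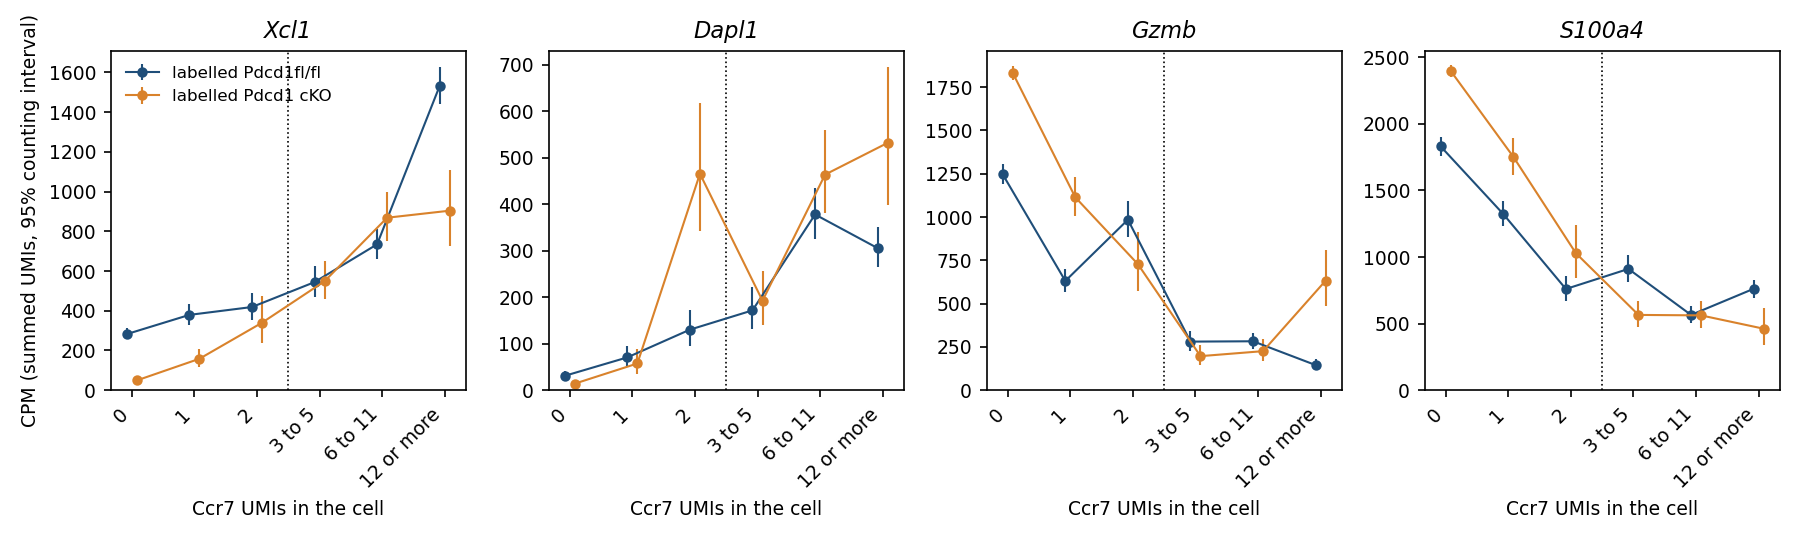
CPM of Xcl1, Dapl1, Gzmb and S100a4 in tumor cells under both limits, binned by the Ccr7 UMIs of the cell, per tumor library, with 95% counting intervals. Cells right of the dotted line are Ccr7-high.

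The same Ccr7 rule in thymus and spleen finds cells with another profile. It takes 122 of 1067 and 733 of 2635 thymus cells and 50 of 1478 and 236 of 4927 spleen cells. All those of the thymus and 42 and 224 of the spleen are T class, and none is dendritic. Tcf7, Lef1, Klf2, Il7r and S1pr1, genes of naive and recirculating T cells, are far lower in Ccr7-high cells of the tumor. Xcl1 of the naive or stem-like list runs the other way, as given below. Tcf7 is 317 and 199.5 CPM (thymus), 129 and 188 (spleen) and 29.2 and 45.4 (tumor). Lef1 is 522 and 467 CPM (thymus), 388 and 386 (spleen) and 12.6 and 3.49 (tumor). Klf2, Il7r and S1pr1 serve the circulation and survival of resting T cells. Klf2 is 375 and 459.7 CPM (thymus), 1008 and 1025 (spleen) and 21.3 and 3.49 (tumor). Il7r is 91.3 and 122 CPM (thymus), 203 and 235 (spleen) and 6.64 and 1.74 (tumor), and S1pr1 150.4 and 231 CPM (thymus), 203 and 159 (spleen) and 7.97 and 6.98 (tumor). Tissue, tumor, mice and library cannot be told apart here. Spleen Ccr7-high cells are shallow, with medians of 1904 and 2066 UMIs, and those of the thymus have 4234 and 5847, against 12178 and 11445 in the tumor. A minimum of 3 raw UMIs thus asks for a higher share of Ccr7 in the shallower cells.

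Xcl1, Nrn1, Pdcd1, Lag3, Ctla4 and Gzmb run the other way. They are single genes and not a fixed list of activation genes, and Xcl1 also belongs to the naive or stem-like list. Xcl1 is 16.1 and 27.0 CPM (thymus), 37.0 and 119 (spleen) and 1037 and 741 (tumor). Nrn1 is 1.34 and 2.39 CPM (thymus), 0 and 6.54 (spleen) and 172 and 138 (tumor). Among inhibitory receptors, Pdcd1 is 4.03 and 2.83 CPM (thymus), 0 and 19.6 (spleen) and 151 and 120.4 (tumor), and Lag3 133 and 126 CPM in the tumor and at most 13.1 elsewhere. Ctla4 is 145 and 225 CPM (thymus), 203 and 294 (spleen) and 608 and 584 (tumor). Dapl1 is shared between tissues, with 67.1 and 111 CPM (thymus), 527 and 348 (spleen) and 299 and 363 (tumor). Gzmb is 0 and 5.43 CPM (thymus), 18.5 and 27.8 (spleen) and 222 and 284 (tumor). The T cell receptor gene Cd3d varies less, with 938 and 942 CPM (thymus), 943 and 891 (spleen) and 1214 and 1430.3 (tumor).

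**Figure D4:**
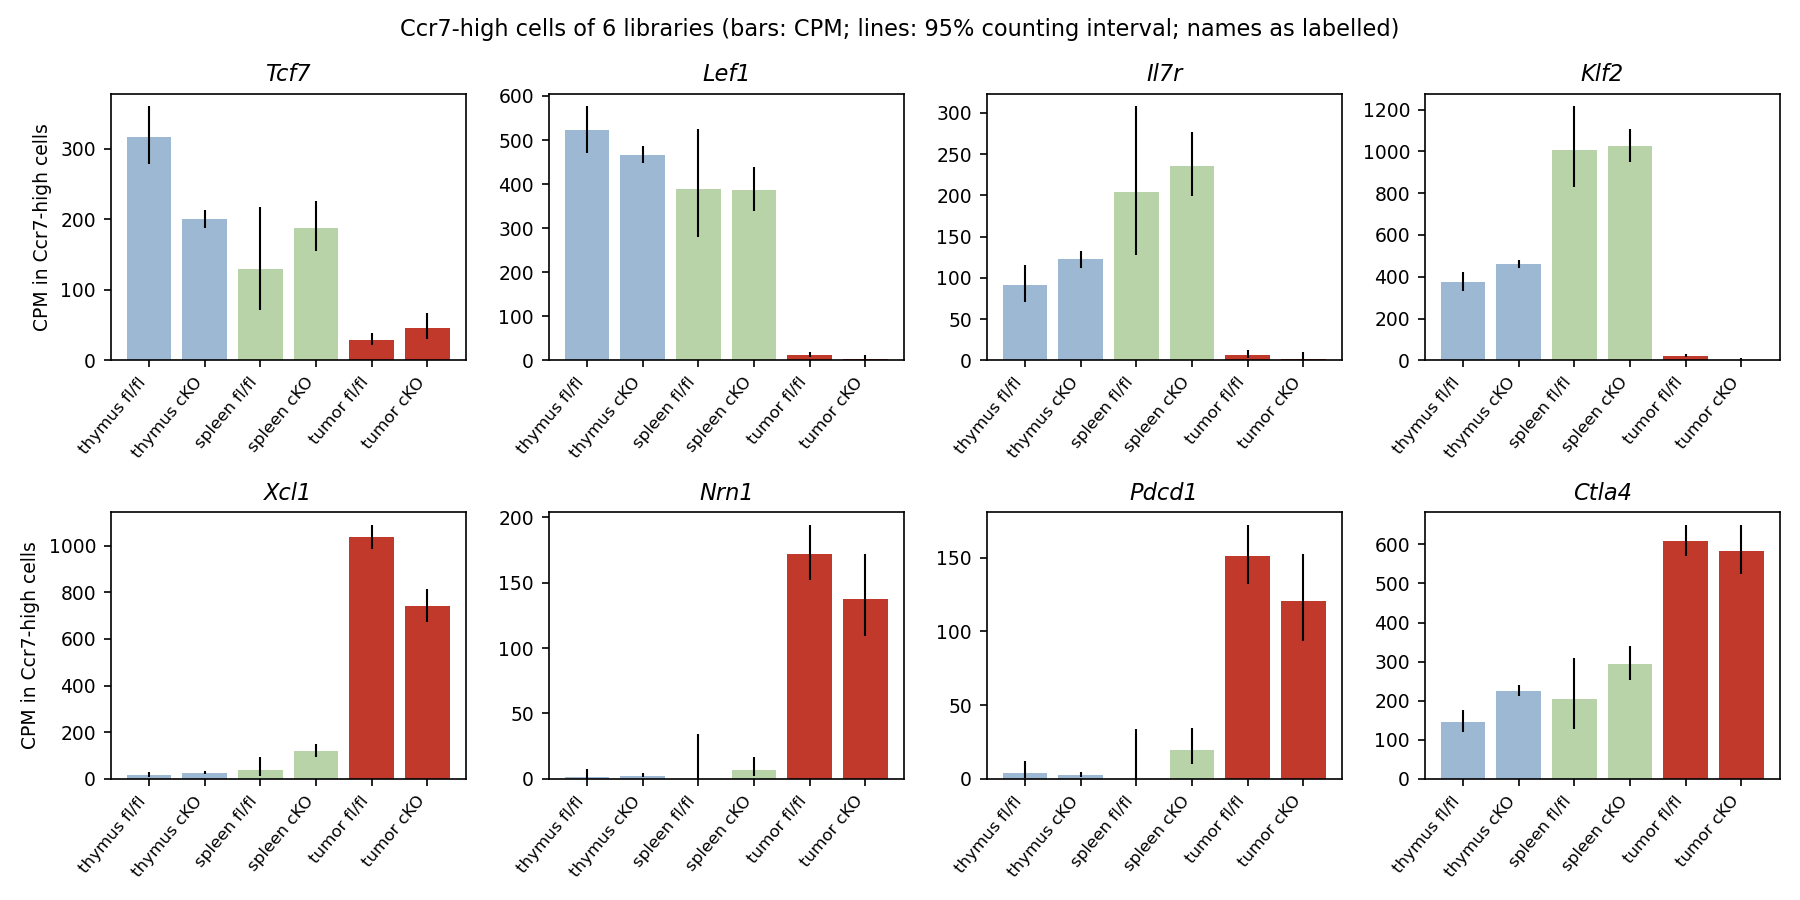
CPM of Tcf7, Lef1, Il7r and Klf2 (top) and of Xcl1, Nrn1, Pdcd1 and Ctla4 (bottom) in Ccr7-high cells of the thymus, spleen and tumor libraries. Cells were chosen by the same rule and libraries are named as labelled, with 95% counting intervals.

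Between the 2 tumor libraries, Ccr7-high cells were compared as cKO over Pdcd1fl/fl by label. Of 2762 genes, 75 (2.72%) were at least 2-fold higher and 54 (1.96%) at least 2-fold lower, with an all-gene median of 0.18. Of these 129 genes, 26 (20.2%) differ 2-fold in the same direction in the remaining cells and 18 (14.0%) in the melanoma barcodes. The share of all 2762 genes that differ 2-fold in those populations is not given here. Neither overlap can thus be called high or low. Scaling by median of ratios gives 43 higher and 84 lower genes. Several of the largest ratios belong to whole libraries. Tafa2 is 3.49 against 139 CPM (log2 -5.31 (-8.37 to -3.44)), and it is -4.24 in the remaining cells and -4.38 in the melanoma barcodes. Vwc2l (-5.40 (-10.72 to -2.89)), Mipep (-4.10) and Rgs11 (0 against 59 UMIs) are lower, and Bmpr1a (7.32 (4.79 to 12.65)), Ecpas (4.62) and Cul3 (2.81) higher, in all 3 populations. Others rest on few cells: Tec (6.66 (4.76 to 9.73)) and Nwd1 (6.09 (4.49 to 8.40)) were read in 3 cells each of the cKO-labelled library, Fry (3.75) in 4, Cdh8 (6.33 (4.74 to 8.64)) in 6 and Gemin6 (3.33) in 7. B4galnt3 and Ppp1r3c have no UMI there and come from 4 and 1 cells of the fl/fl-labelled library, Pdzph1 (-4.67 (-10.00 to -2.15)) from 2, Angpt1 (-2.78 (-5.10 to -1.15)) from 6 and Ifitm1 (-4.06 (-6.35 to -2.48)) from 7. The remaining genes at the ends are Ankrd44 (2.80), Tpp2 (2.73), Macrod2 (2.36), Mt2 (2.20), Cd81 (-3.41 (-6.50 to -1.49)) and Trrap (-4.19 (-7.26 to -2.30)).

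Leading genes of Ccr7-high cells differ between the libraries by other amounts than in the remaining cells, in both directions. Xcl1 is -0.48 (-0.64 to -0.33) in Ccr7-high and -2.36 in remaining cells, Tcf7 0.63 (-0.12 to 1.37) and -1.30. Gzmb is 0.35 (0.07 to 0.63) and 0.73, Nkg7 -0.04 (-0.16 to 0.08) and 0.78. Cd200 is 0.62 (0.23 to 0.99) and -0.17, and Mt2 2.20 (1.78 to 2.63) and 1.54. Among effector genes, Gzmk (1.71 (0.69 to 2.76)), Gzma (1.11 (-0.02 to 2.22)), Ccl5 (1.71 (1.54 to 1.88)) and Ccl4 (1.74 (1.21 to 2.27)) were at least 2-fold higher, but 1 cell of the cKO-labelled library holds 76.1% of its Ccl4 and 1 holds 55.0% of its Ccl5. Without the richest cells Ccl5 is 0.69 and Ccl4 0.32, and in T class cells alone they are 0.92 and -0.0433, all short of 2-fold. Id3 is 2.31 (1.06 to 3.66). Lower by 2-fold or more were Lef1 (-1.85 (-5.00 to 0.20)), Klf2 (-2.61 (-5.71 to -0.64)), Cx3cr1 (-1.35 (-2.28 to -0.54)), Tigit (-1.41 (-3.12 to -0.06)) and, from the few cells described above, H2-Aa (-1.55 (-2.06 to -1.07)), H2-Eb1 (-2.62 (-3.37 to -1.95)) and Cd74 (-2.16 (-2.52 to -1.81)). In T class cells alone H2-Eb1 is 0.37 and Cd74 -0.22, while H2-Aa and, chosen after its value was seen, H2-Ab1 (1.41) turn to more than 2-fold higher. H2-Aa and H2-Ab1 have only 12 and 21 UMIs in these cells of the fl/fl-labelled library, so both ratios are imprecise. H2-Aa and H2-Eb1 also belong to the class rule. List medians are 0.28 for T class genes, -1.53 for dendritic class genes, -0.48 for naive or stem-like genes, 0.76 for cytotoxic genes and -0.07 for exhaustion genes. With 41 cells in the cKO-labelled library, genes read in few cells are imprecise beyond their counting intervals.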

How the data were processed

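Single-cell RNA of CD8-enriched cells from the tumors of both genotypes was measured by PIPseq, with thymus and spleen libraries as further samples. The deposited matrices hold raw UMI counts per gene and cell barcode, made by the authors against GRCm39 for use in Seurat 4.3.0. Barcodes were filtered and chosen as the report states. The filter left 456 and 561 tumor cells, of which the melanoma limit removed 139 and 58 and the macrophage limit 21 and 29. Summed UMIs of each population in each library were turned into CPM, and their intervals are exact Poisson intervals. Log2 ratios carry exact conditional binomial intervals and shares Clopper-Pearson intervals. With 1 library per genotype and tissue there is no test between groups. A gene counts as past the fold at 2-fold or more in the same direction in both tumor libraries; a list median uses genes with at least 20 UMIs over both populations. A count of 0 is bounded with 3 counts.

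Named genes are Pdcd1, Ccr7, Xcl1, Tcf7 and Tafa2, every gene of the 27 marker lists fixed beforehand (230 genes, 229 in the files), and per comparison the 12 highest and 12 lowest genes. These were ranked by the smaller of the log2 ratios of the 2 libraries, after adding 0.5 UMIs to both populations, as also for gene counts and list medians, and only genes other than Gm and Rik genes with 50 or more UMIs in each library were ranked. The cell rule and the lists were chosen with earlier results of these data known. Genes outside this rule are marked where they appear. Thinning drew 1000 UMIs per cell without replacement. Doublets were called with Scrublet in scanpy at a fixed score threshold, because the automatic threshold moved between runs. Alternatives were median of ratios scaling, mean over cells, other Ccr7, UMI, melanoma and macrophage limits, other class minimums, thinned classes, cells without doublet calls, sums without the richest cell, gene counts with no UMIs added and lists without Ccr7. Tools were Python 3.11.15, numpy 2.4.6, scipy 1.17.1, pandas 2.3.3, scanpy 1.11.5 and matplotlib 3.10.9; the code was tested on simulated data.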

Additional observations from a re-analysis of the deposited data

Results flagged for a closer look

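Several genes differ between Ccr7-high and remaining cells in opposite directions in the 2 tumor libraries, and this is what marked them. H2-Eb1 has a log2 ratio of 1.68 in the fl/fl-labelled library and -0.92 in the cKO-labelled library. Cd74 has 1.32 and -1.19, and Ighm 1.24 and -0.89. Each library is a single sample, so the difference between the libraries was not tested. For H2-Eb1 and Cd74, 4 cells hold 92.5% and 77.0% of the UMIs of Ccr7-high cells in the fl/fl-labelled library, and the 4 richest remaining cells 87.0% and 74.0% of theirs. In T class cells alone the signs stay opposite for Cd74 (1.06 and -0.66). H2-Eb1, a gene of the class rule, is 0.10 and -1.31 there. It has 15 UMIs in Ccr7-high T class cells of the fl/fl-labelled library, so no sign can be read from the 0.10. For Ighm, 1 remaining cell holds 77.1% of the UMIs of its side in the cKO-labelled library, and without the richest cells the ratio there is 1.09, so that the opposite sign is gone.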

How the results depend on the processing

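Shares that left the 95% interval of the reported share are given here. Counts of cells or genes are given where they moved by more than 1.5 times, or from or to 0. A list median is given where it moved by more than 0.5 times the width of the 95% interval of the summed ratio of its list. The other 88 alternative values of main results stayed within these limits. The share of Ccr7-high cells in the fl/fl-labelled library is 47.0% with at least 2 Ccr7 UMIs, 31.4% with at least 5 and 25.2% with neither limit, and in the cKO-labelled library 5.27% with at least 5. In the fl/fl-labelled library the dendritic class has 1 cell with at least 4 of 8 genes and 1 with cells thinned to 3000 UMIs. Both rules are met by 17 cells with at least 2 genes, 1 with at least 4, 2 with 2 UMIs per gene and 0 when thinned, and neither by 2 with at least 4, 1 with 2 UMIs per gene and 5 when thinned. In the cKO-labelled library both rules are met by 9, 1, 1 and 1 cells in the same order, and by 2 with at least 5 Ccr7 UMIs, where 23 of 25 are T class. The T class median in the fl/fl-labelled library is -0.0896 with median of ratios scaling and -0.33 with at least 5 Ccr7 UMIs. The dendritic class median there is 0.26 with no UMI minimum, 0.74 with at least 2 Ccr7 UMIs and 1.30 with at least 5, and in the cKO-labelled library 1.06 with no UMI minimum. Scaling gives 23 genes higher than in the remaining cells, and a minimum of 100 UMIs gives 7 higher and 18 lower, with fewer genes compared. Between the libraries, scaling gives 43 higher and 84 lower. Without the richest cells Cd70 in the cKO-labelled library reverses to -0.11 in the calculation only. Both of its 2 UMIs in Ccr7-high cells lie in the cell left out. The value of -0.11 thus rests on the 0.5 UMIs added, and no direction can be read from it. Ighm in that library, which was short of 2-fold, turns to 1.09 without the richest cells. Of 101 named ratios, 98 kept their sign without the richest cells, 96 as means over cells and 98 under scaling. With no UMIs added to the ratios, 11 higher and 56 lower genes are counted in all cells and 12 and 63 in the T class. All alternatives for gene counts, lists without Ccr7 and those for single genes as means over cells or without the richest cell were chosen after seeing the data. For all these moves the cause was not tested, except where fewer genes were compared. Ratios of Ccr7-high over remaining cells are taken within each library, and no p value was computed from the 2 libraries. The comparison between the 2 tumor libraries was not paired, because they come from different mice with no matched samples.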
